A study of Mus musculus with 8 samples.

Results

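ERVK repeats are the mouse class II endogenous retroviruses, remnants of betaretrovirus-like proviruses that entered the germ line. The family holds the intracisternal A particles (IAP), the early transposons (ETn) with their coding relative MusD, the MMERVK10C proviruses and sequences of mouse mammary tumour virus (MMTV). Full-length members have an internal region that codes for the viral proteins, flanked by long terminal repeats (LTRs) that act as promoter and terminator, and many copies are solitary LTRs. IAP and ETn are known for mobility in the mouse germ line, and their silencing there involves DNA methylation and PIWI-interacting RNAs (piRNAs), small RNAs that base-pair with transposon transcripts. A small RNA in the antisense class can pair with the transcript of its element, while one in the sense class has the orientation of that transcript. The strand class alone does not show which transcript a small RNA came from.

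The members were all rows of the count table in the sense or antisense repeat class whose class and family fields read LTR and ERVK, 83547 of 1010917 rows and of 723115 repeat rows. They named 73368 copies of 280 elements, of which 25 elements began with IAP and 255 did not. Summed by element and strand class they gave 557 element rows, 50 of them IAP. The table gives copies by number and no position, so neither the surrounding genes nor the sequence of a copy is given here.

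The libraries held small RNA of mature sperm from C57BL/6J mice, 4 labelled EtOH-Cessation and 4 labelled Control-Cessation. Per the series title the alcohol-treated animals had been off alcohol for a month, and the comparison asks what remained different in their sperm RNA. The labels give no dose, route or age and do not tie libraries to animals, so p-values measure the spread between these libraries. The design text speaks of the caput epididymis although every label says mature sperm. Total counts ran from 3116421 to 6805989 in EtOH libraries and from 4210785 to 4768713 in controls, and exon fragments held 30.5% of EtOH replicate 2, with the other EtOH libraries at 9.08% to 10.4% and controls at 7.07% to 7.73%. The sperm markers (Prm1, Prm2, Tnp1, Tnp2, Odf1, Akap4, Gapdhs and Smcp, all with counts) summed to 243 to 350 CPM (counts per 1000000) in EtOH libraries and 391 to 478 CPM in controls, while 8 markers of the epididymal lining (also all with counts) summed to 804 to 19090 CPM, highest in EtOH replicate 2, against 393 to 576 CPM. In the EtOH group, replicates 1 and 2 have identifiers of the form PO_M and replicates 3 and 4 of the form PO_EM, and what the forms mean is not stated.

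ERVK small RNA was a small and variable part of the sperm pool, and the groups did not differ in it beyond the spread between libraries. ERVK rows held 1.26%, 0.695%, 1.51% and 0.744% of counts in EtOH libraries 1 to 4, against 1.32%, 0.863%, 1.10% and 1.23% in control libraries 1 to 4. EtOH replicates 2 and 4 were the lowest of all libraries and EtOH replicate 3 was the highest, so the EtOH group enclosed the controls. The means were 1.05% ± 0.397 in EtOH and 1.13% ± 0.198 in control libraries (SD, n = 4 each; two-sided exact permutation p = 0.7714), a difference within the spread between libraries. IAP alone held 0.0825% ± 0.0269 in EtOH and 0.0944% ± 0.0161 in control libraries (SD, n = 4 each; exact permutation p = 0.4571). Among ERVK counts the IAP part was 7.998% ± 1.003 in EtOH and 8.39% ± 0.636 in control libraries (exact permutation p = 0.4571, n = 4 each). After adjustment over the 14 single values compared, every p was 0.8 or higher. These shares depend on the rest of the pool: microRNA (miRNA) held 6.96% to 10.1% of counts in EtOH libraries and 16.8% to 27.7% in controls. Of counts other than miRNA, ERVK held 1.155% ± 0.456 in EtOH and 1.407% ± 0.182 in control libraries (SD, n = 4 each, exact permutation p = 0.3429, unadjusted). In bulk libraries, fewer sperm and less RNA per sperm cannot be told apart.

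A single copy stood out in the ERVK signal, and the rest was spread over a long tail of copies. The copy MurERV4_19-int_copy607, an internal region of a MurERV4-related provirus, held 19.6% of the ERVK small RNA, taken as mean CPM over the 8 libraries, and the 10 highest copies together held 33.97%. On that scale 28 copies were enough for 50%, whereas 90% took 15813 copies. In the antisense class MurERV4_19-int_copy607 had 16614, 4163, 23281 and 8464 counts in EtOH libraries 1 to 4 and 10576, 5945, 8435 and 11520 counts in control libraries 1 to 4. Over both strands the copy held 19.4% to 22.9% of the ERVK counts of each EtOH library and 16.6% to 19.96% of those of each control library. The next copies were more than 10 times lower: ERVB5_2-LTR_MM_copy174, RMER17A2_copy860 and RMER19A_copy1370 averaged 186, 183 and 181 CPM of the library total, against 2117 CPM for MurERV4_19-int_copy607.

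IAP was as uneven. Of 6858 IAP copies, 3981 had a count, 12 held 50% of the mean IAP CPM over the 8 libraries, and IAPLTR3-int_copy105 alone held 19.1%. This copy made 59.4% of the mean CPM of its element IAPLTR3-int, and IAPEY3-int_copy231 made 76.3% of those of IAPEY3-int. IAPEz-int, the internal region carried by recently mobile IAP copies, differed from both in this respect, since its highest copy held 3.58% of its mean CPM and 68 copies were needed for 50%.

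**Figure D1:**
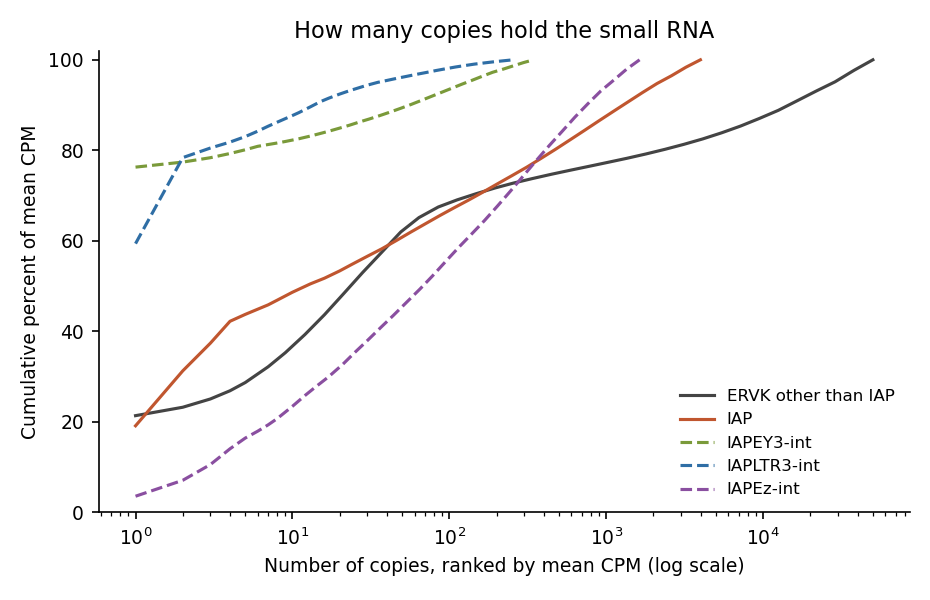
Cumulative percent of the mean CPM over the 8 libraries (vertical axis) against the number of copies ranked by mean CPM (horizontal axis, log scale), for ERVK other than IAP, for IAP, and for 3 IAP internal regions. IAPEY3-int and IAPLTR3-int start at 76.3% and 59.4% with their first copy, whereas IAPEz-int starts at 3.58%.

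The most abundant element rows, in CPM with trimmed-mean (TMM) scaling and not divided by element length, were MurERV4_19-int antisense, RMER17A2 sense, RMER19A antisense, RLTR13D2 sense, RMER19B2 sense, MurERV4-int sense, RLTR9A antisense and ERVB5_2-LTR_MM antisense. MurERV4_19-int antisense averaged 2184 ± 1109 CPM in EtOH and 2247 ± 493.9 CPM in control libraries (SD, n = 4 each), and RMER17A2 sense, an LTR element of the RMER group, 561 ± 290.5 CPM in EtOH and 623 ± 171 CPM in control libraries. The other 6 lay between 185 and 250.5 CPM in EtOH and between 207 and 297 CPM in control libraries. None of these 8 passed the test (edgeR quasi-likelihood test, adjusted p from 0.731 to 0.969), and in all 8 the groups overlapped. Within IAP, IAPLTR3-int antisense was the most abundant row, at 266, 118, 392 and 143 CPM in EtOH libraries 1 to 4 and 255, 177, 263 and 339 CPM in control libraries 1 to 4. EtOH replicate 3 was the highest of the 8 and EtOH replicates 2 and 4 the lowest, so the groups overlapped (adjusted p = 0.841). IAPEY3-int antisense averaged 115 ± 60.2 CPM in EtOH and 137.5 ± 28.4 CPM in control libraries (SD, n = 4 each; edgeR adjusted p = 0.734), and the LTR row IAPLTR2_Mm antisense 49.5 ± 26.6 CPM in EtOH and 50.5 ± 13.6 CPM in control libraries (SD, n = 4 each; edgeR adjusted p = 0.978). IAPLTR3-int sense averaged 37.0 ± 17.1 CPM in EtOH and 53.2 ± 12 CPM in control libraries (SD, n = 4 each; edgeR adjusted p = 0.404).

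IAPEz-int, spread over many copies, stood lower in several EtOH libraries without passing the test. Its antisense row had 128, 62.1, 190 and 85.1 CPM in EtOH libraries 1 to 4, against 170, 137, 220 and 221 CPM in control libraries 1 to 4. EtOH replicates 1, 2 and 4 lay below every control, and EtOH replicate 3 lay inside the control range. The log2 fold change was -0.69 ± 0.40 (SE), with an edgeR adjusted p of 0.274. The sense row of IAPEz-int had 87.7, 147, 110 and 59.3 CPM in EtOH libraries and 119, 113, 135 and 142 CPM in control libraries (log2 fold change -0.33 ± 0.36 SE, edgeR adjusted p = 0.580). Here EtOH replicate 2 was the highest of all 8, opposite to its place in the antisense row. Single copies contributed to that place: IAPEz-int_copy802 sense had 85 counts in EtOH replicate 2, where EtOH replicates 1, 3 and 4 had 1, 0 and 0, against 8 in control replicate 2 and 0 in the other controls. This copy, RMER6B_copy1160 and the RMER17A-int copies were chosen after their values were seen.

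ERVK small RNA was mostly antisense in every library. Antisense counts made up 66.6%, 64.2%, 68.8% and 66.6% of ERVK counts in EtOH libraries 1 to 4 and 66.4%, 64.3%, 66.5% and 66.4% in control libraries 1 to 4 (exact permutation p = 0.3714, n = 4 each; p = 0.02857 without EtOH replicate 2, with a difference of 1.44 points). Leaving out EtOH replicate 2, the lowest library, ends the overlap, so the test then gives its smallest possible p. For IAP the shares were 74.1%, 54.5%, 79.2% and 74.4% in EtOH libraries and 73.0%, 69.4%, 73.3% and 74.2% in control libraries. EtOH replicate 2 stood below all others and EtOH replicate 3 above all others, and the means did not differ beyond that spread (exact permutation p = 0.9714, n = 4 each). Without MurERV4_19-int_copy607 the ERVK antisense share was 58.1% ± 1.66 in EtOH and 58.6% ± 0.842 in control libraries (SD, n = 4 each). Leading copies were more antisense than the rest. The copy with the highest mean share of each element and strand class, 557 rows in all, was 76.6% ± 1.81 antisense in EtOH and 77.2% ± 0.817 in control libraries, while all remaining copies were 51.4% ± 1.43 antisense in EtOH and 52.3% ± 0.809 in control libraries (SD, n = 4 each). These leading copies held 49.54% to 65.15% of ERVK counts in each library. MurERV4_19-int_copy607, which is among them, held 16.6% to 22.9% over both strands. The antisense share of the leading copies without it was not computed. For IAP the leading copies were 92.0% ± 8.30 antisense in EtOH and 94.3% ± 1.84 in control libraries, and the remaining copies 52.5% ± 10.8 in EtOH and 58.3% ± 1.43 in control libraries (SD, n = 4 each).

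Elements differed widely in strand balance. Of 117 elements with a mean of at least 50 counts, 27 were 75% or more antisense, 16 were 25% or less antisense and 74 lay between. None of the 8 IAP elements at that depth was 25% or less antisense, and 4 were 75% or more. The MMERVK10C group was 78.9% ± 1.86 antisense in EtOH and 75.1% ± 2.78 in control libraries, RMER17A2 was 20.1% ± 0.897 in EtOH and 23.7% ± 0.849 in control libraries, and the ETn and MusD group was 29.95% ± 4.01 in EtOH and 34.1% ± 2.08 in control libraries (SD, n = 4 each). MMTV stood at the sense end, at 5.08% ± 2.75 antisense in EtOH and 8.29% ± 5.47 in control libraries (SD, n = 4 each).

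**Figure D2:**
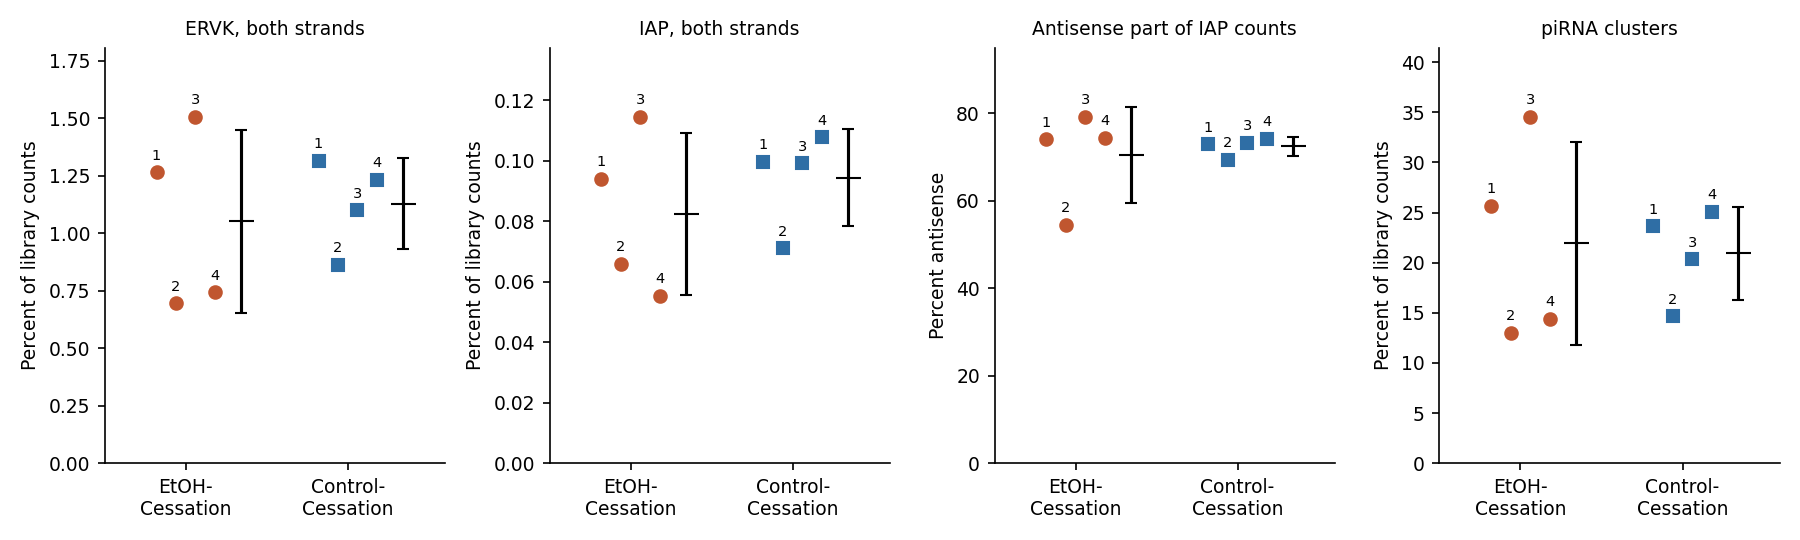
Share of library counts in ERVK, share in IAP, antisense part of IAP counts, and share in piRNA clusters (vertical axes in percent, left to right) for the EtOH-Cessation libraries (circles) and the Control-Cessation libraries (squares), numbered by replicate, with mean and SD (bars, n = 4). EtOH replicates 2 and 4 are low in ERVK and in piRNA clusters, where they hold 13.0% and 14.4% against 25.7% and 34.5% in EtOH replicates 1 and 3.

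The leading ERVK copies kept an almost fixed ratio to the piRNA clusters of the same library. piRNA clusters, loci from which germ cells transcribe piRNA precursors, held 25.7%, 13.0%, 34.5% and 14.4% of counts in EtOH libraries 1 to 4 and 23.6%, 14.7%, 20.3% and 25.1% in control libraries 1 to 4. The log2 ratio of leading-copy counts to cluster counts was -5.14, -5.00, -5.14 and -5.05 in EtOH libraries and -5.08, -5.10, -5.08 and -5.08 in control libraries. It spanned 0.14 log2 units over all libraries although the share of leading copies in the library ran from 0.406% to 0.981% in EtOH and from 0.428% to 0.743% in control libraries. The means were -5.08 ± 0.07 in EtOH and -5.08 ± 0.01 in control libraries (SD, n = 4 each; exact permutation p = 1.0). The remaining copies did not keep such a ratio: it was -5.59, -5.49, -6.04 and -5.54 in EtOH libraries and -5.26, -5.07, -5.36 and -5.68 in control libraries (exact permutation p = 0.1143, n = 4 each). Leading and remaining copies were told apart after the data were seen, and leading copies were picked by their mean over the same 8 libraries, so these ratios are a description. MurERV4_19-int_copy607 was among the leading copies, and their ratio without it was not computed. Leading copies of ERVL with MaLR, another retrovirus class, varied much as those of ERVK did. The log2 ratio of leading ERVK to leading ERVL copies ran from -0.66 to -0.49 over the libraries. That to leading ERV1 copies ran from -0.33 to 1.04, and that to leading L1 copies from -1.89 to -0.94. Whether the table counts a read in both a repeat row and a cluster row is not stated.

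**Figure D3:**
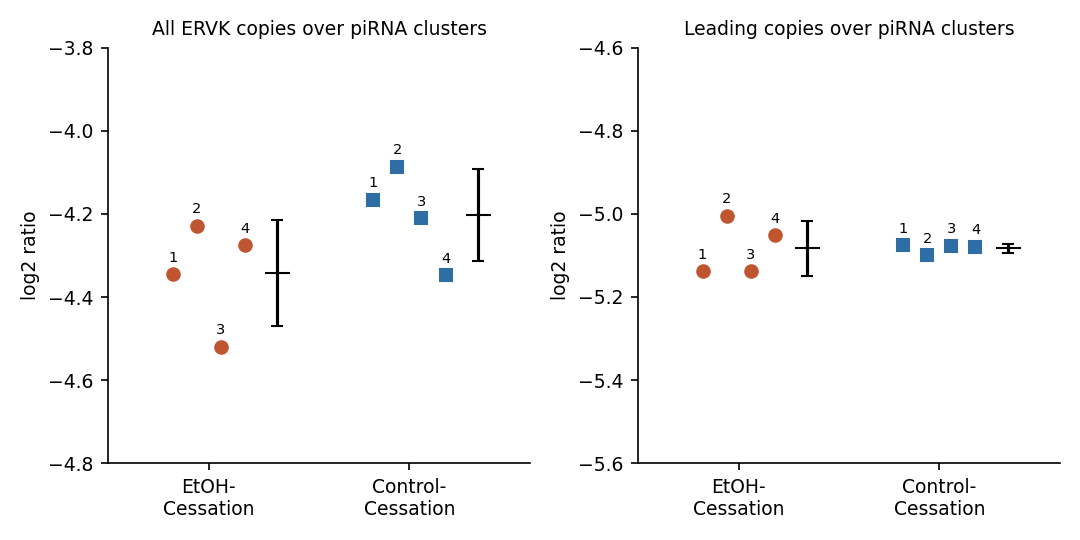
Log2 ratio of ERVK counts to piRNA cluster counts (vertical axes, each 1 log2 unit high) for all ERVK copies (left) and for the leading copy of each element and strand class (right), in EtOH-Cessation (circles) and Control-Cessation libraries (squares), numbered by replicate, with mean and SD (bars, n = 4). The right panel runs from -5.14 to -5.00, while the left panel runs from -4.52 to -4.09.

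The proportion of ERVK to L1 and to ERVL did not differ between the groups beyond the spread, and that to ERV1 was lower in 3 of 4 EtOH libraries than in any control. The log2 ratio of ERVK to L1, the mouse LINE family, averaged -1.31 in EtOH and -1.53 in control libraries (exact permutation p = 0.1429, n = 4 each), and that to ERVL with MaLR, the class III endogenous retroviruses, -0.77 in EtOH and -0.72 in control libraries (exact permutation p = 0.2286, n = 4 each). Against ERV1, the class I retroviruses, the ratio was 0.50, -1.10, 0.70 and -0.45 in EtOH libraries and 0.94, 0.54, 0.71 and 0.72 in control libraries. EtOH replicates 2 and 4 lay far below all controls, EtOH replicate 1 just below them and EtOH replicate 3 inside their range. The difference was -0.81 (exact permutation p = 0.05714, n = 4 each; adjusted p = 0.8), and -1.08 without EtOH replicate 3 (exact permutation p = 0.02857, n = 3 and 4). Leaving out that library, the only one inside the control range, ends the overlap, so the test gives its smallest possible p. In a setting chosen after the data were seen, the leading copies were taken out of ERVK alone and ERV1 kept all its copies. The ratio was then -0.74, -2.36, -0.82 and -1.72 in EtOH libraries and -0.16, -0.45, -0.44 and -0.61 in control libraries. The groups in that setting did not overlap, and the difference was -0.996 (exact permutation p = 0.02857, unadjusted, n = 4 each). With the leading copies alone in both ERVK and ERV1, the ratio averaged 0.36 in EtOH and 0.86 in control libraries (exact permutation p = 0.2286, n = 4 each). EtOH replicates 2 and 4 also had the lowest piRNA cluster shares. Control replicate 2 had nearly the same share as EtOH replicate 4 (14.7% and 14.4%), yet its ratio over all copies was 0.54. ERV1 itself held 1.08% ± 0.277 of counts in EtOH and 0.675% ± 0.0623 in control libraries (SD, n = 4 each).

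Tested by element and strand, 333 ERVK rows had enough counts, 27 of them IAP, and 224 rows were not tested. Of the 333, 1 was higher and 2 were lower in EtOH at an adjusted p below 0.05, read against 8.08% of all 9822 features called higher and 1.83% called lower (edgeR quasi-likelihood test, Benjamini-Hochberg over all features). No IAP row passed: at an unadjusted p below 0.05 0 were higher and 4 lower, DESeq2 called 0 higher and 3 lower, and limma called none. Over all ERVK rows DESeq2 called 2 higher and 18 lower, where it called 15.0% and 4.56% of all features, and limma 1 higher and 3 lower, where it called 6.41% and 3.23%. Among all features, 551 had an adjusted p within 0.0005 of 0.0368. The count moved with single libraries. Without EtOH replicate 3 it was 2 higher and 10 lower, 5 of these IAP. Without EtOH replicate 1 it was 1 and 3, and without EtOH replicate 2 it was 2 and 1. Without EtOH replicate 4 or any control it was 0 and 0. The calls over all features moved too. They were 2069 higher and 422 lower of 11174 without EtOH replicate 3, where 351 ERVK rows were tested. They were 962 and 105 of 10312 without EtOH replicate 1, and 689 and 266 of 11113 without EtOH replicate 2. Without EtOH replicate 4 or any control they were 1 or 2 higher and 3 to 11 lower. Before adjustment, p lay below 0.05 for 2 higher and 35 lower ERVK rows, where all features gave 20.7% higher and 8.46% lower. Groups did not overlap in 2 rows that were higher in EtOH and in 32 that were lower, where all features gave 10.8% and 7.57%. The median log2 fold change was -0.45 over ERVK rows and -0.52 over IAP rows, against -0.04 over all features. Without EtOH replicate 2 the medians were -0.26, -0.31 and 0.07, and without EtOH replicate 3 they were -0.66, -0.84 and -0.14, in the same order.

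The low median lay with elements whose counts were spread over copies. In a split made after the data were seen, 61 rows with at least 50% of mean CPM in a single copy had a median of -0.12 on the log2 scale, against -0.53 in the other 272. When the leading copy alone stood for each element, 108 ERVK rows had enough counts, where 333 were tested with all copies summed. The median was then -0.04 over these 108 ERVK rows and -0.05 over IAP, against 0.08 over all features. Because fewer rows were tested, the -0.04 cannot be set directly against the -0.45 of the 333 rows. The other repeat families had medians of the same sign in the summed fit: -0.32 in ERV1, -0.44 in ERVL with MaLR and -0.52 in L1. By subgroup the medians were -0.33 for 15 IAP internal rows, -0.73 for 12 IAP LTR rows, -0.44 for 10 ETn and MusD rows, -0.35 for 13 MMERVK10C rows, -0.57 for 69 RMER rows and -0.37 for 37 RLTR9 and RLTR13 rows. The 3 MMTV rows stood on the other side, with a median of 1.31. The 7 single ETn and MusD copies tested had a median of 0.56, but the 4 above 0 were ETnERV-int copies with the same or nearly the same values in each library (0.56 to 0.65), and the other 3 lay between -0.71 and -0.45.

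**Figure D4:**
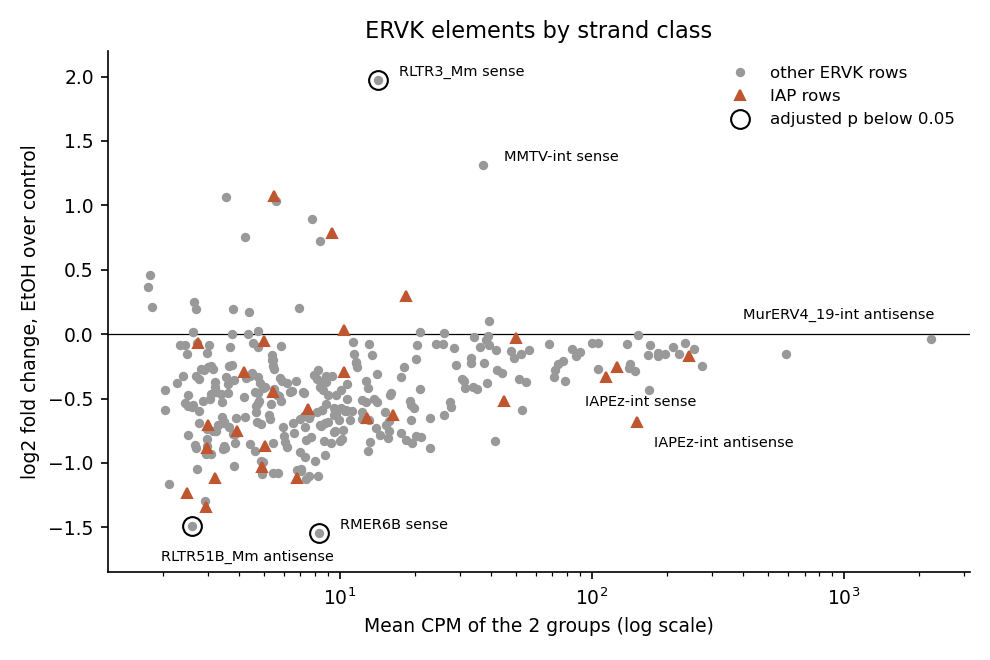
Log2 fold change of EtOH over control (vertical axis) against mean CPM of the 2 groups (horizontal axis, log scale) for the 333 ERVK rows tested, with IAP rows as triangles, other rows as dots and rows past the threshold ringed. RLTR3_Mm sense (1.97) and MMTV-int sense (1.31) lie above the other rows of similar abundance, and MurERV4_19-int antisense, the most abundant, lies near 0.

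The element that rose belonged to MMTV. This is a betaretrovirus with endogenous proviruses in laboratory mice, and its LTR is known for induction by steroid hormones in mammary and other secretory epithelia. RLTR3_Mm, grouped here with MMTV as its LTR, had 14.6, 33.8, 11.1 and 31.5 CPM on the sense strand in EtOH libraries 1 to 4, against 2.27, 6.56, 6.2 and 8.04 CPM in control libraries 1 to 4. Every EtOH library lay above every control. The log2 fold change was 1.97 ± 0.49 (SE) with an edgeR adjusted p of 0.0368. MMTV-int sense, its internal region, had 38.1, 67.3, 30.1 and 75.9 CPM in EtOH libraries and 10.9, 20.9, 24.8 and 28.5 CPM in control libraries. The groups again did not overlap, but the row missed the threshold, with a log2 fold change of 1.31 ± 0.43 (SE) and an edgeR adjusted p of 0.0677. The antisense row MMTV-int antisense was low throughout, at 2.01 ± 0.809 CPM in EtOH and 1.54 ± 1.37 CPM in control libraries (SD, n = 4 each; edgeR adjusted p = 0.617).

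Both sense rows came almost wholly from a single copy each. MMTV-int_copy13 held 96.2% of MMTV-int sense counts, with 269, 249, 198 and 433 counts in EtOH libraries 1 to 4 and 44, 83, 80 and 96 counts in control libraries 1 to 4. RLTR3_Mm_copy16 had 104, 120, 70 and 173 counts in EtOH libraries and 2, 26, 18 and 35 counts in control libraries. In both copies every EtOH library lay above every control in these raw counts, which are not scaled for depth. EtOH replicate 2 had the smallest total, while each other EtOH library had a larger total than any control. The MMTV group made up 1.01% ± 0.735 of ERVK counts in EtOH and 0.257% ± 0.105 in control libraries (SD, n = 4 each).

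The call of RLTR3_Mm held in 13 of 20 alternatives, with adjusted p from 0.00105 to 0.234, and the log2 fold change stayed between 1.63 and 2.50. Without EtOH replicate 2 it was 1.85 (edgeR adjusted p = 0.0164), and MMTV-int sense was then 1.29 (edgeR adjusted p = 0.0453). It lost the threshold without EtOH replicate 4 (adjusted p = 0.0686) and without each control library in turn (adjusted p from 0.0731 to 0.109). With the PO_M libraries alone against the controls the log2 fold change was 1.84 (adjusted p = 0.0202), and with the PO_EM libraries alone 2.02 (adjusted p = 0.0434). The epididymal marker sums beside these values were 2876, 19090, 804 and 1417 CPM in EtOH libraries 1 to 4 and 393, 479, 576 and 558 CPM in control libraries 1 to 4, with EtOH above control in every library. Within the EtOH group these sums and RLTR3_Mm were both highest in replicate 2 and lowest in replicate 3. Replicate 1 exceeded replicate 4 in the sums, and replicate 4 exceeded replicate 1 in RLTR3_Mm. MMTV-int sense was also lowest in replicate 3, but it was highest in replicate 4 and not in replicate 2. The part of epididymal RNA in the MMTV values was not tested.

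**Figure D5:**
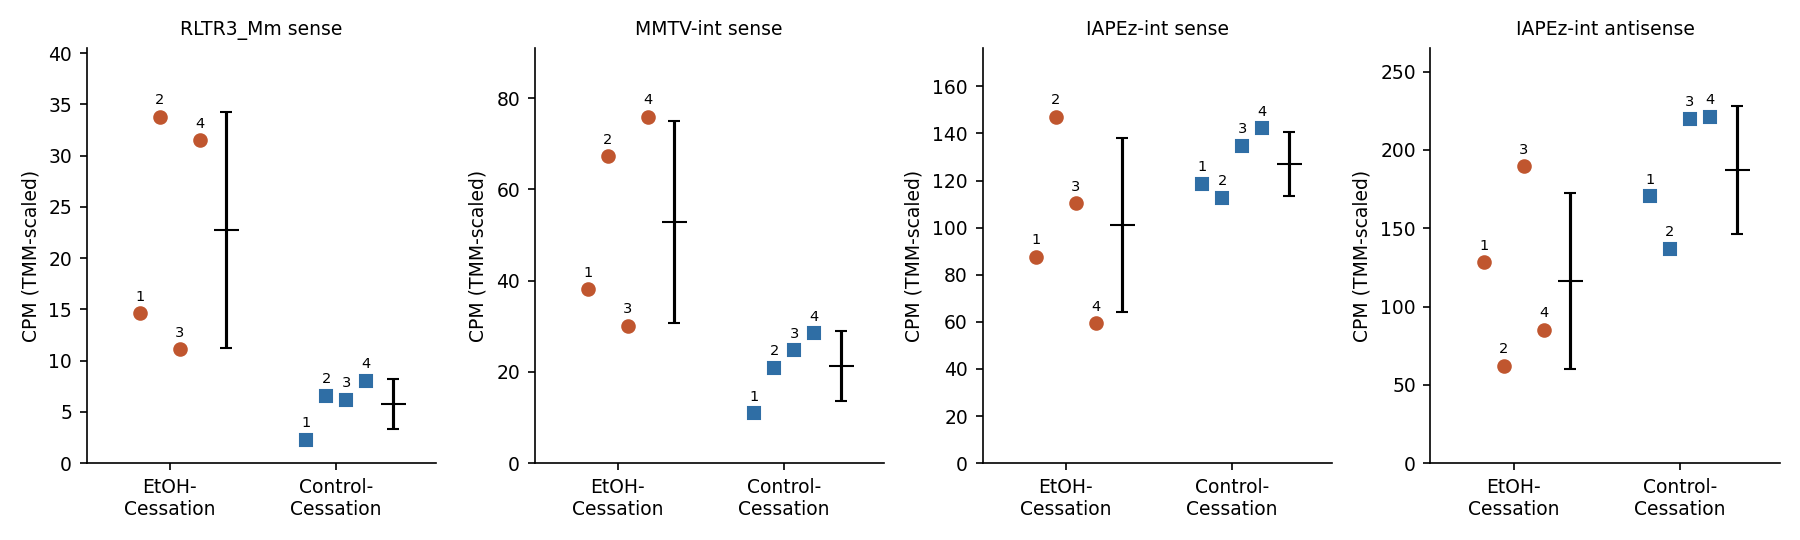
CPM (vertical axes, TMM-scaled) of RLTR3_Mm sense, MMTV-int sense, IAPEz-int sense and IAPEz-int antisense in EtOH-Cessation (circles) and Control-Cessation libraries (squares), numbered by replicate, with mean and SD (bars, n = 4). The EtOH libraries lie above all controls in both MMTV panels, at 11.1 to 33.8 CPM against 2.27 to 8.04 CPM for RLTR3_Mm, and overlap the controls in both IAPEz-int panels.

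Of the 2 rows lower in EtOH, RLTR51B_Mm antisense, an LTR row, had 1.69, 0.810, 0.912 and 1.91 CPM in EtOH libraries 1 to 4 and 4.08, 3.53, 3.22 and 4.60 CPM in control libraries 1 to 4. All 8 values were low and the groups did not overlap (log2 fold change -1.49 ± 0.37 SE, edgeR adjusted p = 0.0368), and the call held in 8 of 19 alternatives. RMER6B sense, also an LTR, had 5.76, 2.97, 5.17 and 2.96 CPM in EtOH libraries and 19.3, 10.9, 10.9 and 8.73 CPM in control libraries (log2 fold change -1.54 ± 0.41 SE, edgeR adjusted p = 0.0376). Its fall rested on RMER6B_copy1160, which had 0, 0, 1 and 0 counts in EtOH libraries and 53, 26, 14 and 3 counts in control libraries. Without that copy RMER6B sense averaged 4.18 ± 1.43 CPM in EtOH and 6.76 ± 1.68 CPM in control libraries (SD, n = 4 each), with a log2 fold change of -0.68 and an edgeR adjusted p of 0.26.

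Other rows with low p did not pass. ERVB4_1-I_MM-int antisense, a betaretroviral internal region, had 6.47, 3.78, 3.95 and 4.18 CPM in EtOH libraries and 8.62, 10.6, 9.67 and 11.5 CPM in control libraries, with no overlap (log2 fold change -1.12 ± 0.35 SE, edgeR adjusted p = 0.0588). The IAP row with the lowest p was IAPLTR2b sense, at 2.25, 1.08, 2.89 and 1.74 CPM in EtOH libraries and 6.12, 4.54, 3.22 and 3.91 CPM in control libraries, again without overlap (log2 fold change -1.11 ± 0.38 SE, edgeR adjusted p = 0.0772). On the other side, RLTR20A antisense averaged 4.89 ± 3.47 CPM in EtOH and 2.23 ± 1.04 CPM in control libraries, with 9.995 CPM in EtOH replicate 2 (SD, n = 4 each; edgeR adjusted p = 0.19), and RLTR13D3A1 sense 7.54 ± 5.17 CPM in EtOH and 3.63 ± 2.47 CPM in control libraries (SD, n = 4 each; edgeR adjusted p = 0.265). Of the 27 IAP rows, 23 had a fitted log2 fold change below 0 and 4 above 0, and those above 0 were IAPLTR1_Mm sense (1.08), IAPEY4_I-int sense (0.78), IAP-d-int antisense (0.30) and IAP-d-int sense (0.04).

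Tested copy by copy, 230 ERVK copies and strands had enough counts, 29 of them IAP, and none passed, where 0.186% of all 10234 features did. At an unadjusted p below 0.05, 3 were higher and 12 lower, against 17.9% and 9.15% of all features, while DESeq2 called 2 higher and 3 lower (13.1% and 3.95% of all features) and limma 2 higher and 4 lower (4.65% and 3.62%). Leaving out EtOH replicate 3 gave 2 higher and 12 lower copies, EtOH replicate 2 3 and 3, EtOH replicate 1 0 and 3, control replicate 4 0 and 1, and any other library 0 and 0. Over all features, leaving out EtOH replicate 3 gave 1912 higher and 420 lower of 11584. EtOH replicate 2 gave 389 and 212 of 11608, and EtOH replicate 1 gave 306 and 40 of 10782. Control replicate 4 gave 3 and 17 of 11693, and any other library 1 higher and 2 to 9 lower. MMTV-int_copy13 sense and RLTR3_Mm_copy16 sense had the lowest p among copies higher in EtOH, with log2 fold changes of 1.47 ± 0.44 and 2.12 ± 0.65 (SE; edgeR adjusted p = 0.0637 and 0.0664). Next were MMERVK9E_I-int_copy40 sense (1.17, adjusted p = 0.155) and RMER12C_copy910 antisense (0.99, adjusted p = 0.253). Among copies lower in EtOH, RLTR22_Mur_copy907 sense had 0.982, 0.817, 0.953 and 1.56 CPM in EtOH libraries and 2.61, 5.23, 7.32 and 7.06 CPM in control libraries (log2 fold change -2.33 ± 0.44 SE, edgeR adjusted p = 0.0525). IAPEz-int_copy4069 sense had 1.54, 0, 1.36 and 1.04 CPM in EtOH libraries and 8.30, 10.7, 2.53 and 4.86 CPM in control libraries (log2 fold change -2.60 ± 0.61 SE, edgeR adjusted p = 0.0525). In both copies every EtOH library lay below every control. They were among 6 of the 230 copies and strands where this held, IAPEz-int_copy6119 antisense being another. In 2 of the 230 every EtOH library lay above every control. The share over all features of this fit is not given here. IAPLTR3-int_copy273 antisense (-1.61, adjusted p = 0.0828) and IAPEz-int_copy6119 antisense (-2.03, adjusted p = 0.108) followed. The 3 most abundant copies, MurERV4_19-int_copy607 antisense, ERVB5_2-LTR_MM_copy174 antisense and RMER17A2_copy860 sense, had adjusted p of 0.893, 0.756 and 0.918.

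Copies that share sequence can share reads. Of 774 ERVK rows with at least 20 counts in all, 24 had the same counts in all 8 libraries as another row, so sums over copies may hold some reads more than once. RMER17A-int_copy197 and RMER17A-int_copy199 are near-identical in this way: in the antisense class they had 314 and 307 counts in EtOH replicate 1, and both had 101 counts in EtOH replicate 2, against 1 count each in control replicate 2 and 184 to 290 in the other controls for RMER17A-int_copy197.

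Exon fragments of the genes that silence these repeats were few. Of 32 genes of the piRNA pathway and of retrotransposon silencing, 8 had an exon feature with enough counts, and none of the 8 features passed in edgeR, DESeq2 or limma or had an unadjusted p below 0.05, where 768 of 4600 exon features were higher and 17 lower. Piwil2, a PIWI protein that loads piRNAs in fetal and adult male germ cells, was the most abundant of the 8 exon features, at 13.8, 6.75, 19 and 10.3 CPM in EtOH libraries and 15.7, 11.4, 13.1 and 21.4 CPM in control libraries (log2 fold change -0.30, edgeR adjusted p = 0.662). Trim28, a corepressor that brings repressive chromatin to IAP and other ERVK copies, had 1 exon tested, which averaged 5.49 ± 2.85 CPM in EtOH and 3.54 ± 1.09 CPM in control libraries (SD, n = 4 each; edgeR adjusted p = 0.399). Summed over all its exon rows, Trim28 had 13.2, 64.2, 13.4 and 15.6 CPM of the library total in EtOH libraries 1 to 4 and 6.43, 12.8, 9.67 and 8.60 CPM in control libraries 1 to 4. These sums did not overlap and were not tested, and the share of exon fragments in the library was likewise higher in every EtOH library than in any control and highest in EtOH replicate 2. Trim28 was not alone in this: the sums of Dnmt1, Tdrd7 and Piwil4 were also higher in every EtOH library than in any control. Piwil4 had only 10 counts in all. The share of all genes that separate in this way was not computed. The other features were exons of Piwil1, Dnmt3a, Tdrd6, Tdrd1, Morc2a and Pld6, with adjusted p from 0.549 to 0.907. The median over the 8 was 0.03, against 0.77 over all exon features. Mature sperm are known to be transcriptionally inactive, and transcripts left from earlier germ cell stages cannot be told apart here from RNA of other cells.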

How the data were processed

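The 8 sperm small RNA libraries, 4 per group, were grouped by their treatment label. The authors trimmed adapters with cutadapt, per the submitters' processing notes, and used only the first read of a pair, per the labels. The deposited values are raw whole-number counts of reads in each annotated feature. The rule for multiply matching reads, the aligner, the build and the annotation were not given in the sources used here. Levels are not divided by element length. Repeat rows were summed by class, family, element and strand class. Features were filtered with filterByExpr (minimum count 10, minimum total 15), scaled by TMM and compared by edgeR 4.0.16 (quasi-likelihood F test, R 4.3.3), calling an adjusted p below 0.05 over all 9822 features (Benjamini-Hochberg); the table as deposited was fitted likewise (10234 features). Log2 fold changes are EtOH over control. The 14 single values per library were compared by a two-sided exact permutation test over the 70 splits, whose smallest p is 0.02857. Shares and leading copies use library totals. On simulated data the steps recovered 4% of 2-fold, 60% of 4-fold, 96% of 8-fold and 100% of 16-fold changes. Of 134 calls there, 4 were false. Changes of 2-fold or less would thus mostly be missed. Alternatives were other scalings, DESeq2 1.42.0, limma 3.58.1 (voom with quality weights), other filters, each library left out, either EtOH identifier form alone, both strands summed and the leading copy alone; those without named or leading copies were added after seeing the data. Named elements are the 6 most abundant IAP and 8 most abundant other rows, those past the threshold, the 4 per direction with the lowest p (also for copies) and the 3 most abundant copies; others were chosen after their values were seen. Members and lists were chosen with earlier results of these data known. Depth was 3116421 to 6805989 counts.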

Additional observations from a re-analysis of the deposited data

Results flagged for a closer look

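Values of 4 results lay apart from the other 3 libraries of their group by Dixon's criterion, out of 94 groups of 4 libraries checked; chance gives about 1 in 20. The antisense share of ERVK counts was 64.29% in control replicate 2, against 66.36% to 66.46% in the other controls. The antisense share of ERVK counts other than IAP was 63.84% in control replicate 2, against 65.61% to 65.86% in the other controls. IAP made up 9.498% of ERVK counts in EtOH replicate 2, against 7.443% to 7.607% in the other EtOH libraries. ERVB4_1-I_MM-int antisense had 6.465 CPM in EtOH replicate 1, against 3.78 to 4.18 CPM in the other EtOH libraries.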

How the results depend on the processing

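The differences in single values were within the spread between libraries and many changed sign. Differences are EtOH minus control. With the PO_M libraries alone the difference was -0.512 percentage points for the antisense share of ERVK, 0.0768 for the IAP share of ERVK and 0.276 for the internal share of IAP. With the PO_EM libraries alone it was 0.0211 points for antisense ERVK and 0.00641 for non-IAP ERVK as shares of all counts, and 4.34 for the antisense share of IAP. With the leading copy standing for each element it was 0.0194 for ERVK, 0.00515 for sense ERVK, 0.0142 for antisense ERVK, 0.00102 for IAP and 0.0184 for non-IAP ERVK as shares of all counts, -0.621 and -0.494 for the antisense shares of ERVK and of non-IAP ERVK, 0.0513 for the IAP share and 0.279 for the internal share of IAP. Without MurERV4_19-int_copy607, the copy with the most counts, the 2 antisense shares differed by -0.496 and -0.204, and without the leading copies by -0.908 and -0.13. Without the leading ERVK copies the internal share of IAP differed by 0.0683. The log2 ratio to ERV1, with ERV1 counted over all its copies, then differed by -0.9963 (exact permutation p = 0.02857, unadjusted, n = 4 each). Over all repeat rows, antisense ERVK differed by 0.0419 points.

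Leaving out each library in turn gave differences from -0.227 to 0.0435 points for ERVK, -0.15 to 0.0465 for antisense ERVK and -0.204 to 0.0499 for non-IAP ERVK as shares of all counts. The antisense share of ERVK ranged from -0.0901 to 1.44 and had an exact permutation p of 0.02857 without EtOH replicate 2 (n = 3 and 4). The antisense share of IAP ranged from -4.78 to 3.45 and the internal share of IAP from -0.366 to 0.249. The log2 ratio to ERV1 ranged from -1.08 to -0.475 (exact permutation p = 0.02857 without EtOH replicate 3, n = 3 and 4) and that to ERVL with MaLR from -0.0692 to -0.0261 (exact permutation p = 0.02857 without control replicate 2, n = 4 and 3). Each p of 0.02857 here is the smallest that the exact permutation test can give with 3 against 4 libraries.

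ERVK element rows past the threshold were 0 higher and 0 lower with median-of-ratios size factors and with piRNA cluster totals as library size. Over all 9822 features the first setting called 1 higher and 5 lower, and the second 0 and 0. The ERVK count was 2 higher with library size alone, 2 higher and 18 lower (3 IAP) with DESeq2, 2 higher and 0 lower with the leading copy alone, 0 lower with no filter, with the PO_EM libraries and with both strands summed, 1 lower without RMER6B_copy1160, and 2 lower IAP rows with the PO_M libraries. Over all features, library size alone called 833 higher and 119 lower, and the leading copy alone 908 and 153 of 9269. No filter called 2434 and 96 of 289983, and both strands summed 824 and 189 of 9461. The PO_EM libraries gave 214 and 126 of 11769, and the PO_M libraries 2380 and 385 of 13081. Leaving out each library gave 0 to 2 higher and 0 to 10 lower ERVK rows, of which IAP gave 0 to 5 lower. Single ERVK copies past the threshold were 2 higher and 3 lower (2 IAP) with DESeq2, 2 higher and 4 lower (1 IAP) with limma, 2 higher and 2 lower (1 IAP) with library size alone, 20 higher and 41 lower (10 and 10 IAP) with no filter, 1 lower with a mean count of at least 10, and 2 higher and 12 lower (2 and 7 IAP) with the PO_M libraries. Over all features of the copy fit, library size alone called 719 higher and 99 lower, and no filter 1466 and 176 of 867194. The mean count filter called 1 and 10 of 12535, and the PO_M libraries gave 2206 and 366 of 13606. Leaving out each library gave 0 to 3 higher and 0 to 12 lower ERVK copies, of which IAP gave 0 to 1 higher and 0 to 6 lower. The cause was not tested. IAPEz-int sense had a log2 fold change of 0.0362 with piRNA cluster totals as library size; the other fold changes printed for rows named by rule kept their sign under the alternatives run. The fitted fold changes of MurERV4_19-int antisense and IAPLTR2_Mm antisense, near 0 and not among these, changed sign in 10 and 11 of 20 alternatives. Library size alone moved the median of all features to 0.10 and piRNA cluster totals to 0.12, and the ERVK median was then -0.32 and -0.37.

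No paired analysis was possible because the replicate numbers were given in accession order and pair nothing. Depth and 4 libraries per group limit what can be seen: 224 of 557 ERVK element rows had too few counts to test, and most tested copies had few counts, so a change there was not detectable rather than absent. Intervals between libraries also hold any difference in RNA from other cells, which was not tested.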
